A study of Homo sapiens with 18 samples.

Results

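RRBS-blind windows are stretches of the genome for which reduced representation bisulfite sequencing (RRBS) returned no CpG in any of the 3 cell lines studied. RRBS cuts DNA with an enzyme that recognises CCGG, keeps short pieces and converts their unmethylated cytosines, so that methylation is read base by base, mostly where CpGs are dense. MBD-seq instead pulls down sheared DNA with a methyl-CpG binding domain and sequences what was bound, and therefore also samples the CpG-poor remainder of the genome. MethylCap is such a kit. The signal of MethylCap in these blind windows was compared between HCT15, a colon cancer line, and DU145 and PC3, which are both prostate cancer lines.

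The autosomes of GRCh37 were divided into windows of 1000 bases, and a window was taken as blind when it held no N base and no CpG row in any of the 3 RRBS files. This left 2094492 blind windows of 2684312 windows without N (78.0%), and 589820 covered windows. A further 196630 windows had no RRBS row but held N bases and were not used. Blind windows held 7.21 CpGs on average and 27.8% of them held a CCGG, against 19.8 CpGs and 87.5% in covered windows. By position on GENCODE 44, 923341 blind windows overlapped a protein-coding gene, 15817 overlapped a promoter (1000 bases before to 500 after a gene start) and 1155334 were intergenic. The PC3 RRBS file held no row on chromosome 22 and stopped within chromosome 21, so the 20828 blind windows of chromosome 22 rest on the other two lines.

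The study captured 200 ng of sheared DNA of each untreated line with 5 kits and sequenced 1 library per kit and line, and it made 1 RRBS library per line. DU145 was collected at a later passage than HCT15 and PC3, and the sample labels and the methods of the study name different suppliers for it. The MethylCap libraries held 3825379 (HCT15), 811203 (DU145) and 932107 (PC3) autosomal fragments, so HCT15 was 4.72 and 4.10 times as deep as the other two lines. The MethylMiner libraries held 7163312, 2894727 and 2033431 fragments. With 1 MethylCap library per line there is no replicate of it, and intervals given with a ratio cover counting error only (95%, from the counts of fragment starts).

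Where 3 values stand together they are in the order HCT15, DU145, PC3. The level of a set of windows is given as its ratio. This is the mean MethylCap depth of the set over the mean depth of all windows of that library, divided by the same quantity from the MethylMiner library of that line, which served as control for copy number. A ratio of 1 means that the set took the share of MethylCap depth that it took of MethylMiner depth. MethylMiner is itself a capture kit, with the binding domain of MBD2, and its relative depth was not flat over CpG density. In HCT15 it went from 0.527 in blind windows without a CpG to 1.74 in those with 20 to 49 CpGs. In windows with at most 2 CpGs, summed over 1829 bins of 1 Mb, each MethylCap library correlated most strongly with the MethylMiner library of its own line (r = 0.596 in HCT15, 0.321 in DU145 and 0.414 in PC3). The HCT15 MethylMiner library came close to that of DU145 itself for the DU145 MethylCap library (r = 0.310). In windows without a CpG, with 187 to 745 MethylCap fragments per line, HCT15 and PC3 also correlated most strongly with their own line (r = 0.140 and 0.0739), but DU145 did so with HCT15 (0.0358, against 0.0317 with its own).

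CpG methylation in mammals follows a broad pattern in which CpG-dense promoters are mostly unmethylated, bodies of transcribed genes are mostly methylated, and long gene-poor stretches lose part of their methylation in many tumour lines. The capture of a fragment grows with the number of methylated CpGs that it holds. Windows were chosen for the largest excess of 1 line over both others, among those with at least 5 CpGs outside chromosomes 8 and 18. Their MethylMiner relative depth in the higher line also had to lie within a set range. The sequences below are the CpG-richest stretches of 2 such windows, both in protein-coding genes. With 38 and 21 CpGs these windows are far richer than the average blind window. Each is the run of 300 bases with most CpGs in its window that touches no annotated UTR, on the forward strand of GRCh37 with CG in capitals.
UNKL, chr16:1453239-1453538, highest in HCT15: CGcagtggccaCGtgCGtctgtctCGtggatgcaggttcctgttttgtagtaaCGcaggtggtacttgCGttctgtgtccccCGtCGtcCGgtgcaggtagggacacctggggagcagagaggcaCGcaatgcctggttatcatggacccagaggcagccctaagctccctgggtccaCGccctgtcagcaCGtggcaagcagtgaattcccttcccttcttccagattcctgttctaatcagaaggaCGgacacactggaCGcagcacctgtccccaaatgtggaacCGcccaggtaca
DLG5, chr10:79577036-79577335, highest in PC3: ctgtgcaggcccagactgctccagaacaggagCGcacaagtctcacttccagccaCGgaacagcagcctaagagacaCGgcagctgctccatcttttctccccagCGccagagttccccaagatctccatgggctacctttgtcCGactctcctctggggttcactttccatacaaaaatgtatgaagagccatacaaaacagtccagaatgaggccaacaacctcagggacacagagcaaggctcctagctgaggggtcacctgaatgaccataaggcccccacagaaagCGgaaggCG

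The UNKL window (chr16:1453001-1454000, 38 CpGs, 1 CCGG) overlaps coding exon sequence on the reverse strand and had a mean MethylCap depth of 5.77 in HCT15, 0.279 in DU145 and 0.354 in PC3. Per library this was 20.7, 5.22 and 5.32 times the mean window, from 30, 2 and 2 fragments. The DLG5 window (chr10:79577001-79578000) had 41.2 times the mean in PC3, with 14 fragments, against 5.95 in HCT15 and 4.08 in DU145, while its MethylMiner relative depth was 1.64 in PC3 and 6.09 and 6.41 in the other two. The same rule also gave a window in the last part of TRMU, over UTR sequence (chr22:46753001-46754000), with 29 fragments in HCT15 and 2 in each of the others, and a window within the lncRNA MIR4300HG (chr11:82127001-82128000), with 11 in DU145, 4 in HCT15 and 6 in PC3. In HCT15, DU145 and PC3 these were 20.2, 5.50 and 5.41 times the mean window for TRMU, and 3.13, 49.9 and 18.2 times for MIR4300HG.

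Over all blind windows the ratio was 0.608, 0.669 and 0.651, and in covered windows it was 1.84, 1.63 and 1.68. Blind windows still took 41.4% of MethylCap depth in HCT15, 43.8% in DU145 and 43.0% in PC3. Most single windows carried none of it: 68.6% of blind windows had no MethylCap depth in HCT15, 86.5% in DU145 and 86.2% in PC3, in the order of library depth. Blind windows are therefore described by sums over sets of windows.

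CpG count ordered the ratio in the same way in all 3 lines. In the 21631 blind windows without a CpG it was 0.0481 (0.0451 to 0.0513), 0.103 (0.0933 to 0.114) and 0.0621 (0.0548 to 0.0703). It reached 0.306, 0.395 and 0.383 in windows with 5 to 9 CpGs and 1.06, 1.09 and 1.09 in those with 10 to 19. In windows with 20 to 49 CpGs it was 2.49, 2.11 and 2.11. The lines therefore crossed: DU145 was highest below 10 CpGs and HCT15 was highest from 20 CpGs on. The value in windows without a CpG was highest in DU145. It is an average and no lower limit, since single bins and genes of PC3 lay below it.

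**Figure D1:**
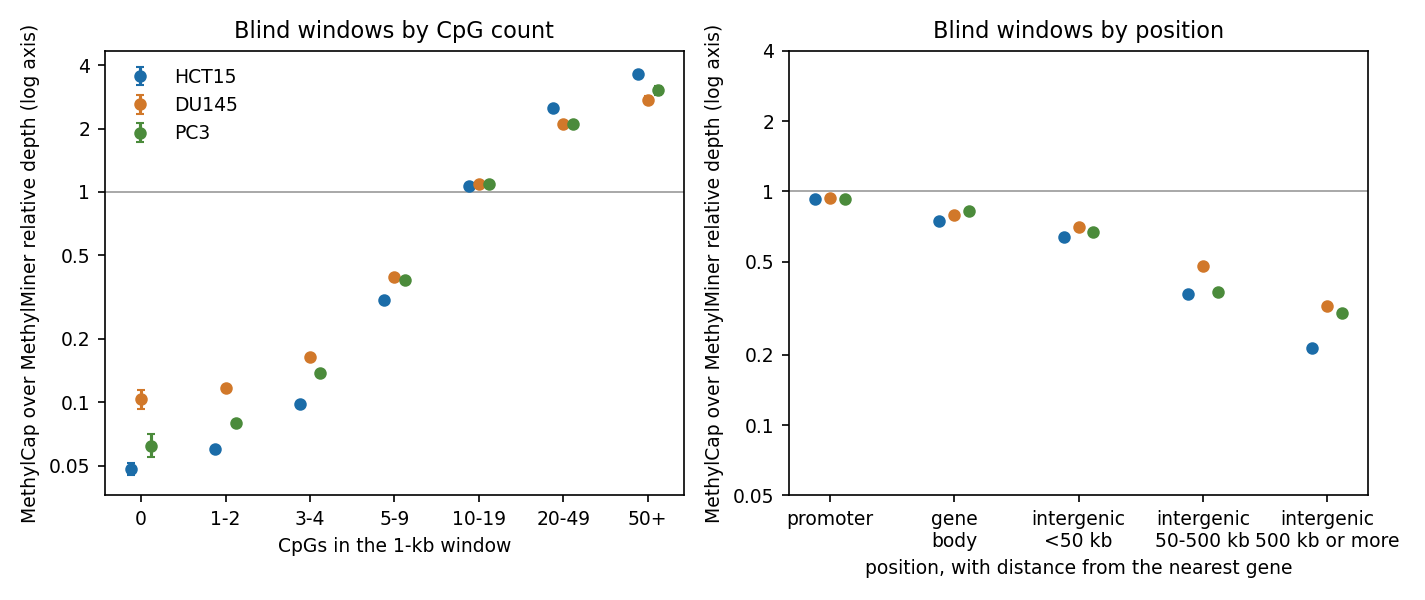
The ratio of MethylCap over MethylMiner relative depth (log axis) in blind windows, by CpGs per window (left) and by position (right), with 1 point per cell line and bars for the 95% counting interval. The ratio rises from 0.0481, 0.103 and 0.0621 without a CpG to 2.49, 2.11 and 2.11 with 20 to 49 CpGs, and falls with distance from genes.

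Position separated blind windows as well. The ratio was 0.928 in HCT15, 0.934 in DU145 and 0.925 in PC3 at blind promoters, 0.746, 0.791 and 0.824 in gene bodies, and 0.466, 0.553 and 0.483 in intergenic windows. Among intergenic windows it was 0.635, 0.706 and 0.669 within 50 kb of a gene, 0.365, 0.479 and 0.372 at 50 to 500 kb, and 0.214, 0.324 and 0.302 at 500 kb or more. CpG count moves with position, from 13.3 CpGs per window at blind promoters to 7.78 in gene bodies and 6.66 in intergenic windows. Within 1 range of CpG counts, gene bodies stayed above intergenic windows in every line. With 10 to 19 CpGs the ratio was 1.17, 1.15 and 1.24 in gene bodies and 0.932, 1.01 and 0.904 in intergenic windows. Blind promoters with 20 to 49 CpGs were the lowest of the 3 classes at that density, at 1.89, 1.63 and 1.62 against 2.66, 2.18 and 2.28 in gene bodies.

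Chromosomes differed along the same lines. The ratio ran from 0.449 (chromosome 4) to 1.13 (chromosome 22) in HCT15, from 0.540 (chromosome 5) to 1.10 (chromosome 22) in DU145, and from 0.526 (chromosome 5) to 1.12 (chromosome 22) in PC3. Chromosome 19, at 1.03, 1.03 and 1.12, came next to chromosome 22. The blind windows of chromosome 22 were set without RRBS rows of PC3. They held 11.8 CpGs on average, the most of any chromosome, against 11.4 on chromosome 19. HCT15 had the lowest ratio of the 3 lines on 18 of 22 chromosomes.

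Whether the lines differed in these summaries was tested over 12 libraries, the 3 lines in each of MethylCap, MethylCollector, MethylCollector Ultra and MethylMagnet, by exact permutation of the lines within kits (all relabellings, smallest possible p = 0.00463). Kit means were removed, and the kits were applied to DNA of the same preparation. The p-values therefore measure how far the line differences vary between kits, and not the spread between cultures. On a log2 scale, gene body over intergenic depth averaged 0.87 ± 0.22 in HCT15, 0.86 ± 0.16 in DU145 and 0.81 ± 0.35 in PC3 (SD over 4 kits), and lines took 3.45% of the sum of squares (exact permutation p = 0.986, adjusted over 4 values 0.986). Gene bodies were above intergenic windows in all 12 libraries, from 0.30 (MethylMagnet in PC3) to 1.08 (MethylCollector in HCT15). For MethylCap alone the value was 0.97, 0.71 and 0.99. Blind over covered depth averaged -2.89 ± 0.50, -2.83 ± 0.51 and -2.49 ± 0.54, with 44.9% of the sum of squares between lines (exact permutation p = 0.0509, adjusted 0.204). The PC3 mean rests partly on MethylMagnet, at -1.97 in PC3 against -2.98 and -3.09, whereas MethylCap had -2.33, -2.19 and -2.23. Promoter over intergenic depth averaged 1.86 ± 0.37, 1.75 ± 0.37 and 1.53 ± 0.45 (exact permutation p = 0.130, adjusted 0.259). Depth in windows without a CpG over all blind windows averaged -2.52 ± 1.49, -2.79 ± 0.53 and -2.33 ± 1.49 (exact permutation p = 0.583, adjusted 0.778). None of the 4 values differed between lines beyond the variation of the line differences from kit to kit.

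**Figure D2:**
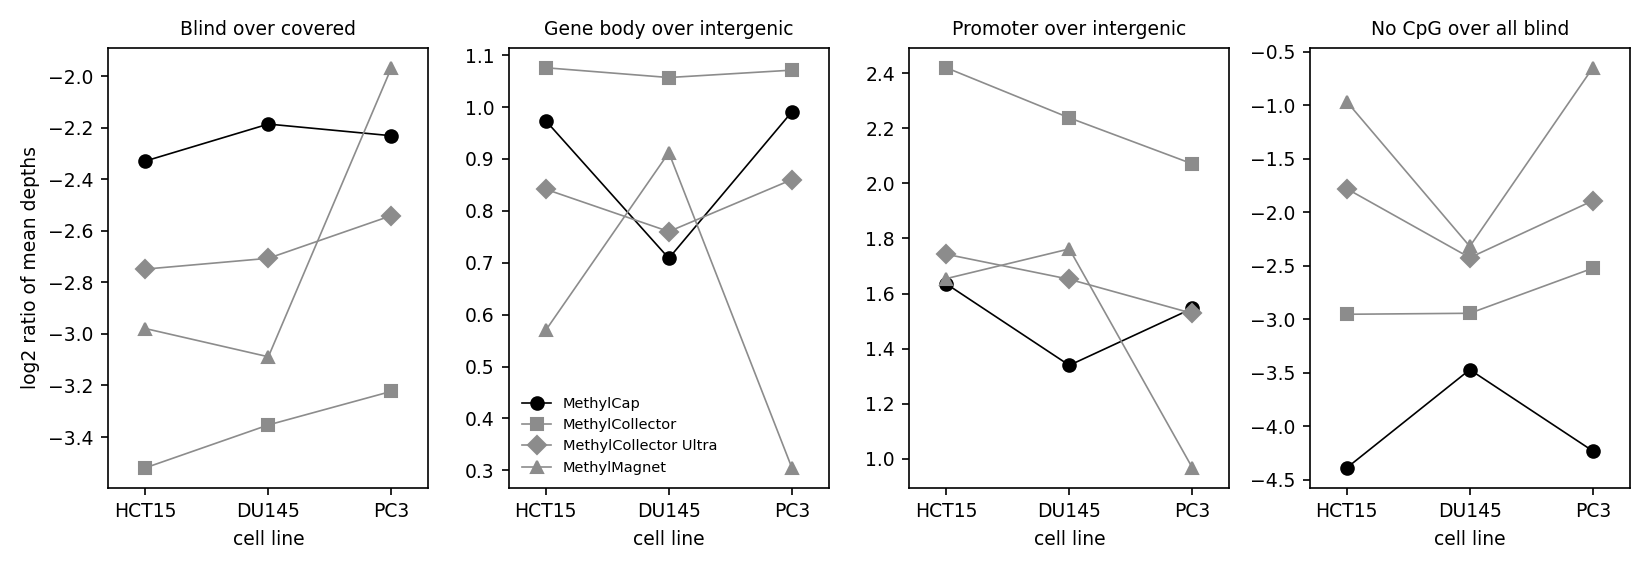
Log2 ratios of mean depths for 4 summaries of the blind windows, by cell line, with 1 point per library and lines joining the libraries of a kit (MethylCap in black, the other kits in grey). Kits differ more than lines do, and gene bodies lie above intergenic windows in all 12 libraries, from 0.30 to 1.08.

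At the scale of 1-Mb bins, summed over the blind windows of each bin, the lines differed in a part of the bins. Of 2734 bins, 2698 had enough windows and fragments. A bin was called when its ratio differed at least 2-fold between a pair of lines and the 95% counting interval of the difference excluded 0. Between HCT15 and DU145, DU145 was higher in 237 bins (8.78%) and HCT15 in 0 (0.0%). Between HCT15 and PC3, PC3 was higher in 252 (9.34%) and HCT15 in 117 (4.34%). Between DU145 and PC3, DU145 was higher in 265 (9.82%) and PC3 in 24 (0.89%). The median difference over all bins was -0.30 (log2) for HCT15 minus DU145, -0.20 for HCT15 minus PC3 and 0.03 for DU145 minus PC3. With these medians set to 0, DU145 was over HCT15 in 88 bins and HCT15 over DU145 in 1, and HCT15 was over PC3 in 152 and PC3 over HCT15 in 150. With the ratio of windows without a CpG subtracted, which was chosen after the data were seen, the splits were 7 and 214, 213 and 319, and 298 and 130 for the first and the second line of each pair.

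The bin ratio was 0.423 in the median bin of HCT15, 0.540 in DU145 and 0.511 in PC3. The lowest values were reached in PC3, with a minimum of 0.0173 against 0.0643 in HCT15 and 0.136 in DU145. In PC3 156 bins (5.78%) lay within 2-fold of the ratio of windows without a CpG, against 18 (0.667%) in HCT15 and 59 (2.19%) in DU145. Across bins the log2 ratios of HCT15 and DU145 correlated with r = 0.93, and those of PC3 with r = 0.82 (HCT15) and 0.80 (DU145). These are descriptions over neighbouring bins of 1 library per line. Called bins were gene-poor and CpG-poor: the 265 bins with DU145 over PC3 held a median of 1 protein-coding gene and 5.97 CpGs per window, and all bins 5 genes and 6.88 CpGs.

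**Figure D3:**
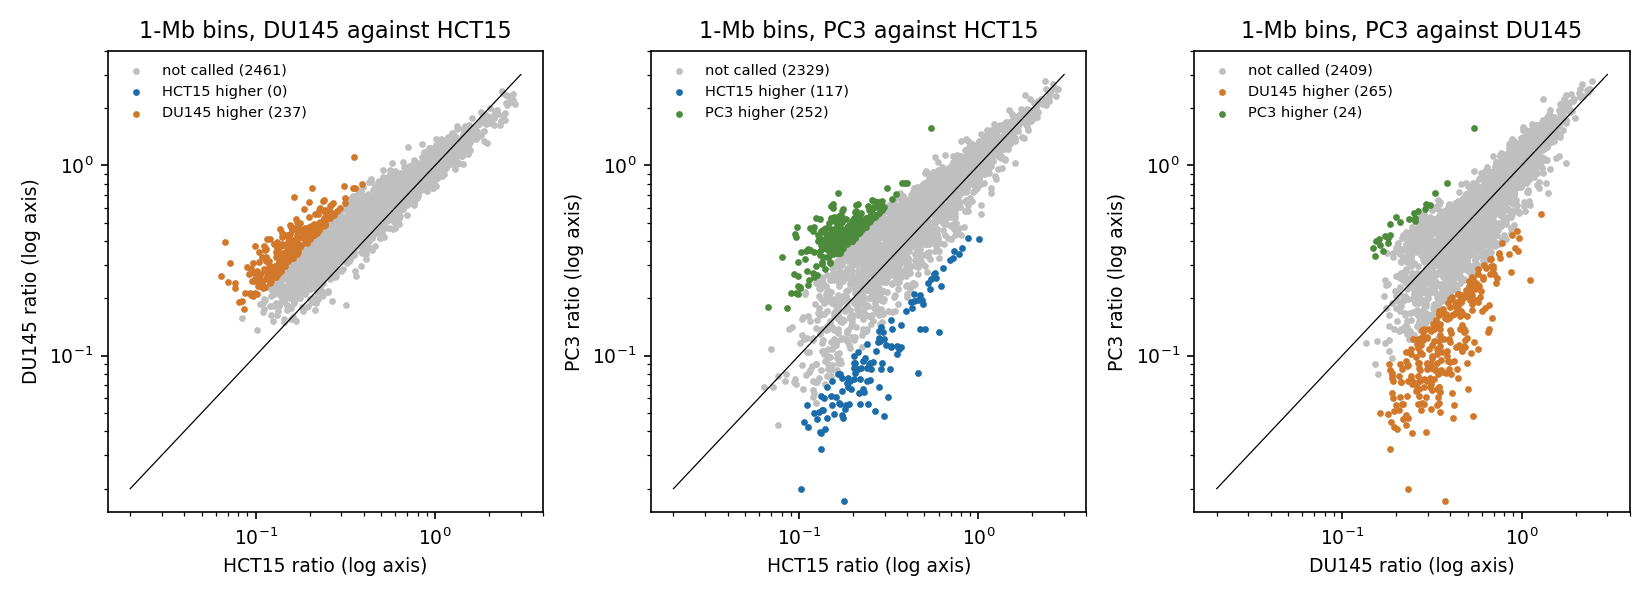
The ratio in each of 2698 bins of 1 Mb for the 3 pairs of lines (log axes), with called bins in the colour of the higher line and the diagonal marking equality. PC3 carries 117 bins below HCT15 and 265 below DU145, down to a ratio of 0.0173, and 0 bins had HCT15 over DU145.

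RRBS of the covered windows in the same bins, which the calls did not use, followed the calls. Mean methylation was taken over CpGs with at least 20 reads in both lines, with at least 10 such CpGs per bin. In bins with DU145 over PC3, RRBS was higher in DU145 in 261 of 262 (99.6%), against 89.3% of all bins, and the medians were 76.2% in DU145 and 46.7% in PC3. In bins with HCT15 over PC3, RRBS was higher in HCT15 in 112 of 114 (98.2%), against 73.3% of all bins, with medians of 70.1% and 43.6%. The opposite calls had the opposite tilt. In bins with PC3 over HCT15, RRBS was higher in HCT15 in 60 of 235 (25.5%), with medians of 70.8% in HCT15 and 79.8% in PC3. In bins with DU145 over HCT15, RRBS was higher in HCT15 in 22 of 230 (9.57%, against 22.5% of all bins), with medians of 65.4% and 79.9%. In the 24 bins with PC3 over DU145 it was higher in DU145 in 9 (37.5%). Across all bins the log2 difference of the ratio correlated with the RRBS difference with r = 0.37 for HCT15 and DU145, 0.65 for HCT15 and PC3 and 0.76 for DU145 and PC3.

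**Figure D4:**
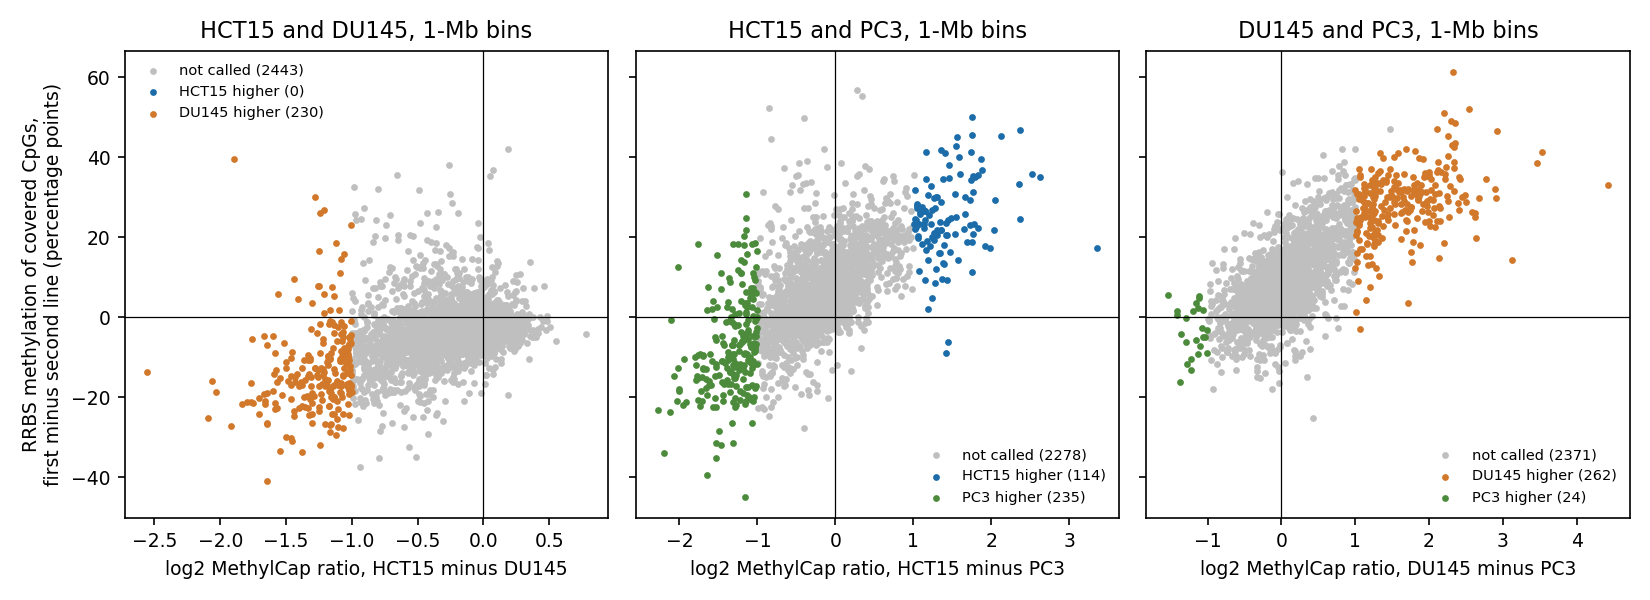
Difference in RRBS methylation of the covered CpGs of a bin (percentage points) against the log2 difference of the MethylCap ratio in its blind windows, for the 3 pairs of lines, with 1 point per 1-Mb bin and called bins in the colour of the higher line. Nearly all bins with DU145 over PC3 (261 of 262) also have higher RRBS methylation in DU145.

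The remaining 3 kits, pooled and not divided by MethylMiner, separated the called bins less well. Only bins and genes with at least 10 pooled fragments over the pair, and some in each line, were counted. Those without a fragment in the shallow DU145 pool were thus left out of its pairs. The blind windows took a higher share of their fragments in HCT15 than in PC3 in 40 of the 117 bins with HCT15 over PC3 (34.2%), against 25.8% of all bins, and in 4 of the 252 bins with PC3 over HCT15 (1.59%). Between DU145 and PC3 the share was higher in DU145 in 76 of 253 bins with DU145 over PC3 (30.0%, against 24.2% of all bins). In bins with PC3 over DU145 it was so in 2 of 22 (9.09%). In the bins with DU145 over HCT15 the share was higher in HCT15, against the call, in 125 of 217 (57.6%, against 60.9% of all bins). In genes called in either direction between DU145 and PC3 it was higher in DU145 in 108 of 248 with DU145 over PC3 (43.5%) and in 60 of 139 with PC3 over DU145 (43.2%), against 45.7% of all genes. In genes with HCT15 over DU145 it was higher in HCT15 in 8 of 27 (29.6%, against 42.5% of all genes). With DU145 over HCT15 it was so in 89 of 221 (40.3%). Between HCT15 and PC3 it was higher in HCT15 in 77 of 182 genes with HCT15 over PC3 (42.3%, against 34.1% of all genes). With PC3 over HCT15 it was so in 86 of 457 (18.8%). These pools held 961389, 68992 and 886270 fragments, and in the PC3 pool MethylMagnet had 50.7% of its fragments in blind windows. The part of that library in these shares was not tested.

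Part of the called bins adjoined each other. The 117 bins with HCT15 over PC3 fell into 91 runs, of which 17 held more than 1 bin (43 bins). The 252 bins with PC3 over HCT15 fell into 147 runs, of which 54 did (159 bins). Such runs held 107 of 237 bins with DU145 over HCT15, 125 of 265 with DU145 over PC3 and 7 of 24 with PC3 over DU145. Adjacency was not tested against a random placement of bins. The longest run lower in PC3 was chr7:67000001-72000000, 5 bins with 3579 blind windows. It contains AUTS2, a nuclear regulator of neuronal development, GALNT17, a glycosyltransferase, and CALN1, a calcium-binding protein. It held 2256, 612 and 222 MethylCap fragments, and the ratio was 0.403 (0.385 to 0.422), 0.443 (0.408 to 0.482) and 0.142 (0.124 to 0.163). HCT15 and DU145 were alike and PC3 lay 2.83-fold and 3.11-fold below them. RRBS in the covered windows of the run was 68.3% in HCT15 and 44.7% in PC3 over 1189 CpGs, and 74.0% in DU145 and 45.7% in PC3 over 2052. MethylMiner relative depth was 1.09, 1.27 and 1.22. MethylCollector did not separate PC3 there, with relative fragment densities of 0.201, 0.283 and 0.324 in HCT15, DU145 and PC3. MethylCollector Ultra had 0.384, 0.603 and 0.328, and MethylMagnet 0.372, 0.306 and 0.789. These rest on 4 to 328 fragments per library.

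Further runs lower in PC3 than in HCT15 were of the same order. In chr14:84000001-88000000, with FLRT2, an axon guidance membrane protein, there were 429, 230 and 40 fragments and ratios of 0.181, 0.315 and 0.0585, the last next to the PC3 ratio of 0.0621 in windows without a CpG. RRBS was 73.0% in HCT15 and 43.6% in PC3. In chr14:46000001-49000000, with MDGA2, a synaptic adhesion protein, the ratios were 0.182, 0.263 and 0.0752. In chr2:78000001-81000000, with CTNNA2, an alpha catenin of neurons, LRRTM1 and 4 secreted REG proteins of the gut, they were 0.171, 0.257 and 0.0727. In chr3:1000001-4000000, with the contactins CNTN4 and CNTN6, they were 0.175, 0.384 and 0.0682. In all 4 runs PC3 was lowest and DU145 highest.

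PC3 was the highest line in other stretches of the same kind. The longest were on chromosome 13. The run chr13:64000001-73000000, with the protocadherin PCDH9, KLHL1 and the transcription factor DACH1, held 9 bins and 819, 221 and 507 fragments. Its ratio was 0.189 (0.176 to 0.203), 0.265 (0.231 to 0.303) and 0.499 (0.453 to 0.549). RRBS there was 66.0% in HCT15 and 80.5% in PC3 over 244 CpGs. In chr13:81000001-90000000, with the neurite outgrowth regulators SLITRK1, SLITRK5 and SLITRK6, the ratios were 0.182, 0.300 and 0.468. In chr4:131000001-139000000, with PCDH10 and PCDH18, they were 0.183, 0.325 and 0.514, and in chr5:24000001-31000000, with the cadherins CDH9 and CDH10, 0.186, 0.286 and 0.434. The run chr2:140000001-146000000, with LRP1B and ZEB2, had 0.174, 0.431 and 0.456, so that DU145 stood with PC3. MethylMiner relative depth in the first of these runs was 0.356, 0.318 and 0.347. The longest run with DU145 over HCT15 was chr13:54000001-60000000, with PCDH17 and the PRR20 genes, at 0.101, 0.305 and 0.168. The longest run with PC3 over DU145 was chr14:41000001-45000000, with the synaptic adhesion gene LRFN5, at 0.169, 0.164 and 0.385.

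**Figure D5:**
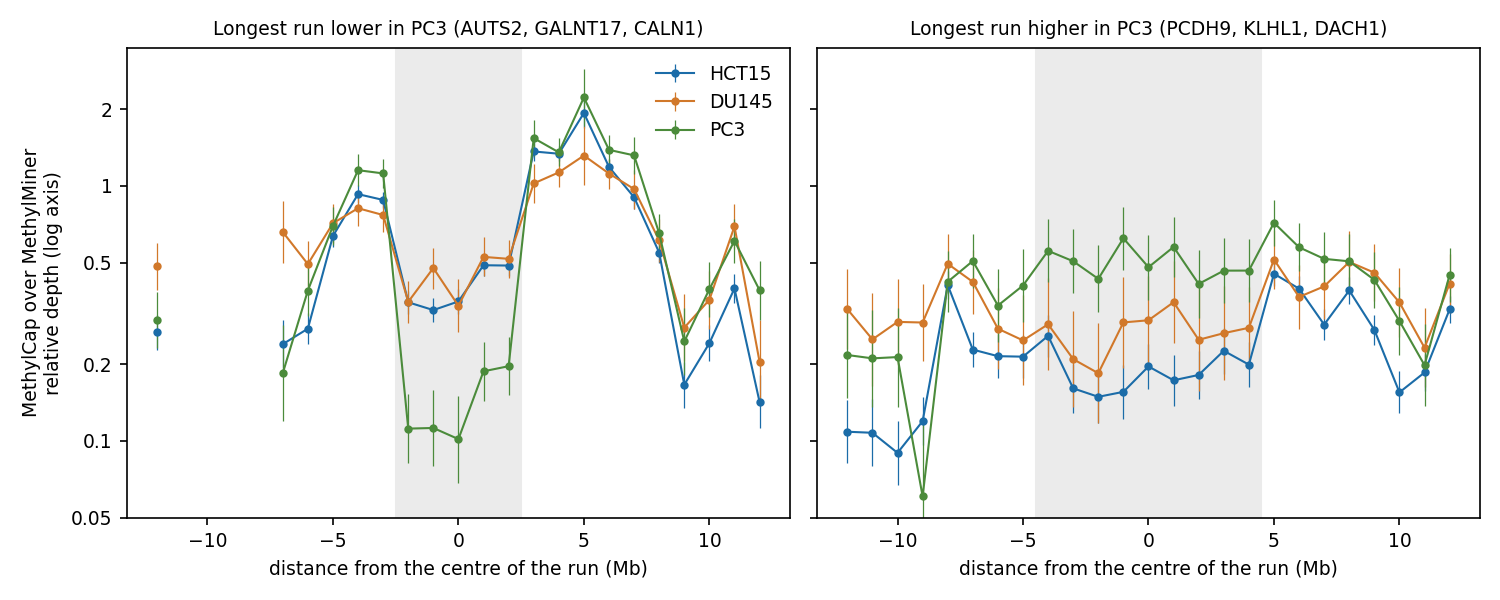
The ratio of MethylCap over MethylMiner relative depth (log axis) per 1-Mb bin around the longest run lower in PC3 (left) and the longest run higher in PC3 (right), both against HCT15, with distance in Mb from the centre of the run, bars for the 95% counting interval and the run shaded. On the left PC3 drops to 0.142 over the run while HCT15 and DU145 stay at 0.403 and 0.443, and on the right PC3 lies at 0.499 against 0.189 and 0.265.

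Protein-coding genes were compared in the same way, over the blind windows of the gene body outside promoters. Of 19229 autosomal genes 17510 had such a window, 8578 had at least 20, and 6122 also had at least 20 MethylMiner fragments in each line and 20 MethylCap fragments in at least 1 line. The median gene had a ratio of 0.689 in HCT15, 0.745 in DU145 and 0.826 in PC3. DU145 was over HCT15 in 381 genes (6.22%) and HCT15 over DU145 in 48 (0.784%). PC3 was over HCT15 in 466 (7.61%) and HCT15 over PC3 in 184 (3.01%). DU145 was over PC3 in 382 (6.24%) and PC3 over DU145 in 244 (3.99%). With the median difference over genes set to 0 the splits were 272 against 83, 238 against 303, and 482 against 158. Without the copy number control, DU145 was over PC3 in 574 and PC3 over DU145 in 578, and HCT15 was over DU145 in 281 against 381 the other way. With the background of windows without a CpG subtracted, DU145 was over PC3 in 467 and PC3 over DU145 in 517, and HCT15 over DU145 in 212 against 366. The excess of DU145 over PC3 was thus gone without the control and turned with the background subtracted. With the median set to 0 the order of HCT15 and PC3 turned, with HCT15 over PC3 in 303 and PC3 over HCT15 in 238.

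RRBS in the covered windows of the same genes followed the calls lower in PC3 more than the other calls. It was higher in HCT15 in 145 of 162 genes with HCT15 over PC3 (89.5%, against 54.0% of all genes), with medians of 77.0% and 51.8%. It was higher in DU145 in 338 of 352 genes with DU145 over PC3 (96.0%, against 83.1%), with medians of 81.2% and 52.2%. For HCT15 over DU145 it was higher in HCT15 in 10 of 45 (22.2%, against 21.4%). For DU145 over HCT15 it was higher in HCT15 in 51 of 278 (18.3%, against the same 21.4%). For PC3 over HCT15 it was higher in HCT15 in 126 of 297 (42.4%, against 54.0%), and for PC3 over DU145 it was higher in DU145 in 157 of 216 (72.7%, against 83.1%).

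Genes with the largest differences were sought outside chromosomes 8 and 18, with 1 gene kept per 1 Mb. The words largest and furthest refer below to this choice. SORCS1, a sorting receptor of the VPS10 family (chr10:108333421-108924464, 456 blind windows), had the largest excess of DU145 over PC3. It held 104, 49 and 3 MethylCap fragments, and the ratio was 0.221, 0.450 and 0.0331. The log2 difference was 3.76 between DU145 and PC3 (2.06 to 5.47) and 2.74 between HCT15 and PC3 (1.07 to 4.42). RRBS was 68.6% in DU145 and 36.0% in PC3 over 104 CpGs. STXBP6, a SNARE-binding protein, held 87, 15 and 2 fragments and ratios of 0.373, 0.490 and 0.0513. A count under 3, as in PC3 here, was set to 3 in a ratio. The log2 difference was 3.26 between DU145 and PC3 (1.43 to 5.09), and RRBS was 76.3% and 51.4% over 21 CpGs.

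Other genes far below DU145 in PC3 were DCDC1, a doublecortin-domain gene, with 50, 23 and 3 fragments, and DOK5, an adaptor of receptor tyrosine kinases, with 38, 26 and 1. The PC3 counts of DOK5 and of APBB1IP below were set to 3 in their log2 differences of 3.23 (1.47 to 5.00) and 3.10 (1.26 to 4.93) between DU145 and PC3. APBB1IP, an effector of the GTPase Rap1, held 102, 21 and 1 fragments, with RRBS of 98.5% in DU145 and 35.4% in PC3. In the remaining 3 kits, pooled, the relative fragment density was 0.245, 0.256 and 0.246 in SORCS1 and 0.0997, 0.0817 and 0.274 in DCDC1. It was 0.252, 0 and 0.410 in DOK5, 0.156, 0.181 and 0.141 in STXBP6, and 0.420, 0.418 and 0.261 in APBB1IP. The DU145 values rest on 0 to 3 fragments. HCT15 was furthest over PC3 in LRRC38, a potassium channel subunit, with 93 fragments in HCT15 and 4 in PC3 and ratios of 1.79 and 0.228. GRK3, a kinase of G-protein-coupled receptors, held 121 and 3, with ratios of 0.704 and 0.0906. POU2AF1, a coactivator of B cells, held 93 and 4, with ratios of 0.719 and 0.115. LRRC38 had RRBS of 84.9% in HCT15 and 48.1% in PC3 over 12 CpGs. With windows limited to those whose neighbours were also blind, the log2 difference between HCT15 and PC3 was 0.21 for LRRC38 and 0.76 for GRK3, and neither was called. APBB1IP also lost its call between DU145 and PC3 there, at 1.88.

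PC3 was furthest over HCT15 in ENSG00000289503 on chromosome 14, with 3, 2 and 22 fragments. The log2 difference of HCT15 minus PC3 was -3.71 (-5.53 to -1.89). With MethylCap thinned to the shallowest line PC3 was higher by 1.43 (log2) and the call was lost. PCLO, a scaffold of presynaptic active zones, held 19, 22 and 45 fragments with ratios of 0.0902, 0.364 and 0.663, and RRBS was 92.9% in PC3 and 68.1% in HCT15 over 12 CpGs. TWIST1, a transcription factor of mesenchyme, held 12, 6 and 22 fragments in the long gene model of the annotation, with ratios of 0.155, 0.321 and 1.10. CDH11, a mesenchymal cadherin, had ratios of 0.128, 0.246 and 0.802. RRBS in these 2 genes had the opposite order. It was 72.9% in PC3 and 85.4% in HCT15 for TWIST1 over 10 CpGs, the fewest allowed, and 51.7% and 73.2% for CDH11 over 36. CPNE8, a copine, had 67.5% in PC3 and 69.1% in HCT15.

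DU145 was furthest over HCT15 in STK33, a serine/threonine kinase, with 20, 17 and 7 fragments and ratios of 0.0929, 0.593 and 0.169. Its RRBS was 96.9% in DU145 and 77.4% in HCT15 over 14 CpGs. IQCM, ENSG00000276490, IMPG2, a proteoglycan of the retina, and JAKMIP2 followed, with 15 to 24 fragments in DU145. ENSG00000276490 had 0 fragments in PC3, so its PC3 ratio of 0.110 is an upper limit. HCT15 was furthest over DU145 in OPRD1, the delta opioid receptor, with 75, 5 and 5 fragments and ratios of 1.24, 0.321 and 0.517. RRBS of OPRD1 was 84.9% in HCT15 and 92.6% in DU145. TARBP1, a tRNA methyltransferase, LRRC38, ZFAND6 and RNF121, a ubiquitin ligase, had 3 to 7 fragments in DU145. None of these 5 calls remained in windows whose neighbours were also blind, where the log2 difference ran from -0.047 (LRRC38) to 1.05 (TARBP1). The DU145 values of ZFAND6 and RNF121 also placed them among the genes furthest below PC3, with MFSD11, KLHDC10 and VGLL3, a cofactor of TEAD transcription factors. VGLL3 held 29, 1 and 17 fragments, and its log2 difference of DU145 minus PC3 was -2.54 (-4.41 to -0.68, with the DU145 count set to 3). All 5 genes lost this call in windows with blind neighbours, where PC3 was higher by 0.68 to 1.71 on the log2 scale.

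Gene lists were read against the share of all genes called. The lists were chosen with earlier results of these data known, so a share above that of all genes is no independent result. Long neural adhesion and synapse genes, 48 of 48 measured, stood low in all 3 lines, with a median ratio of 0.189 in HCT15, 0.356 in DU145 and 0.204 in PC3 against 0.689, 0.745 and 0.826 over all genes. They held a median of 1041.5 blind windows, against 75 over all genes. A call depends on fragment counts, so the shares over all genes do not come from genes of like size. DU145 was over PC3 in 19 of these genes (39.6%, against 6.24% of all genes) and PC3 over DU145 in 0. DU145 was over HCT15 in 17 (35.4%, against 6.22%) and HCT15 over DU145 in 0. HCT15 was over PC3 in 8 (16.7%, against 3.01%) and PC3 over HCT15 in 5 (10.4%, against 7.61%). RRBS in the covered windows of these genes was higher in DU145 than in PC3 in 45 of 48, with medians of 76.5% and 51.1%, against 83.1% of all genes with medians of 87.5% and 78.8%.

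The list held opposite orders of HCT15 and PC3. CNTN4, a contactin, held 103, 41 and 12 fragments and ratios of 0.154, 0.376 and 0.0465. LRRC4C, a netrin-G ligand, had 0.210, 0.355 and 0.0583, and RRBS of 76.9% in HCT15 and 53.3% in PC3. CTNNA2 and DPP10, a potassium channel partner, were also lower in PC3 than in both other lines, at 0.0744 and 0.0872. NEGR1, a neuronal growth regulator, went the other way, with 36, 30 and 47 fragments and ratios of 0.0901, 0.321 and 0.433, and RRBS of 50.2% in HCT15 and 92.3% in PC3 over 21 CpGs. LRP1B, a receptor of the LDL receptor family, had 122, 57 and 108 fragments and ratios of 0.144, 0.355 and 0.435. CNTNAP2, with 1928 blind windows, was not called in any pair, at 0.343, 0.357 and 0.392.

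Genes of the chromatin and transcription machinery, 38 measured of 44 annotated, stood high, with a median ratio of 0.913 in HCT15, 0.974 in DU145 and 1.35 in PC3. PC3 was over HCT15 in 4 (10.5%, against 7.61%) and over DU145 in 6 (15.8%, against 3.99%). CHD1, a chromatin remodeller, had ratios of 0.512, 0.482 and 1.68. NSD3, a histone methyltransferase, had 0.991, 0.414 and 2.01. BPTF, a remodeller subunit, had 0.922, 0.544 and 1.44, and 18 fragments in DU145. Their RRBS was higher in DU145 than in PC3 in 32 of 37, with medians of 90.9% and 88.4%, where 83.1% of all genes had that order.

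Of the clustered protocadherins, cell surface proteins encoded on chromosome 5, 33 of 53 were measured. DU145 was over HCT15 in 14 (42.4%, against 6.22% of all genes) and over PC3 in 10 (30.3%, against 6.24%), all of the alpha cluster, whose gene models overlap and share windows, so they count as 1 observation. PCDHA1 held 80, 40 and 11 fragments and ratios of 0.436, 1.20 and 0.466. PCDHGA1 of the gamma cluster, which was not called, had 1.09, 1.43 and 1.24. Of 15 cadherins measured, PC3 was over HCT15 in 4 (CDH6, CDH8, CDH11 and CDH18; 26.7%, against 7.61% of all genes) and HCT15 over PC3 in 2 (13.3%, against 3.01%). DU145 was over HCT15 in 3 (20%, against 6.22%), over PC3 in 2 (13.3%, against 6.24%) and under PC3 in 2 (13.3%, against 3.99%). These 15 cadherins held a median of 198 blind windows, against 75 over all genes. CDH13, a truncated cadherin often silenced in tumours, held 402, 117 and 23 fragments, ratios of 0.298, 0.418 and 0.114, and RRBS of 74.9% in DU145 and 36.6% in PC3 over 151 CpGs. CDH1, the epithelial cadherin, was not called in any pair, at 0.828, 1.13 and 0.843.

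Few lineage genes of the 2 tissues could be measured. Of 9 colon genes, LGR5, a receptor of intestinal stem cells, was called in both pairs with HCT15, with a ratio of 0.260 in HCT15, 0.648 in DU145 and 0.568 in PC3. It was the only colon gene called (11.1%, against 6.22% of all genes for DU145 over HCT15 and 7.61% for PC3 over HCT15). Of 5 prostate genes measured 0 were called in any pair, and TMPRSS2, a serine protease of prostate epithelium, had 1.39, 1.14 and 1.39. Of 33 measured ZNF genes of chromosome 19, zinc finger repressors, PC3 was over HCT15 in 6 (18.2%, against 7.61% of all genes) and over DU145 in 3 (9.09%, against 3.99%). HCT15 was over DU145 in 2 (6.06%, against 0.784%), DU145 over HCT15 in 2 (6.06%, against 6.22%) and DU145 over PC3 in 1 (3.03%, against 6.24%). ZNF568 had 0.253, 0.906 and 0.290. Of 413 olfactory receptor genes 5 were measured. Only OR7C1 was called, with DU145 over HCT15 (20%, against 6.22% of all genes) and over PC3 (20%, against 6.24%). It held 20, 14 and 3 fragments and ratios of 0.309, 1.13 and 0.140. Of 153 keratin-associated, cornified envelope and defensin genes 0 had enough blind windows and fragments.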

How the data were processed

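The files of the series were used as deposited. For MBD-seq the authors mapped read pairs to hg19 with Bowtie, kept unique pairs within 400 bp, collapsed duplicates and deposited runs of coverage, a signal not scaled to depth. The RRBS files give 2 read counts per CpG, the methylated reads and the total, which the authors deposited for CpGs covered at least 6 times. Versions of the mapping tools are not given in the sources used here.

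Mean depth per window, its share of the autosomal depth and the MethylCap over MethylMiner ratio were computed from these. Genes needed at least 20 blind windows and 20 MethylMiner fragments in each line, bins at least 200 windows and 50 MethylMiner fragments, and both 20 MethylCap fragments in at least 1 line. MethylCap counts under 3 were set to 3, and a call required at least 3 in the higher line. Intervals (95%) cover counting error only. RRBS values used CpGs with at least 20 reads in both lines. Genes and the genome are GENCODE 44 on GRCh37. The 4 summaries were tested by exact permutation of lines within kits, two-sided, with Benjamini-Hochberg adjustment. Calls and the permutation test were tested on simulated data. The counts simulated for the calls held counting error only, so they cannot show false calls from variation between libraries or cultures of a line.

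Kits, not cultures, were the units of that test, and kit was its block because the kits share the DNA of a line. The 5 genes with the largest difference in each direction were named, and the 2 windows per line. Both choices left out chromosomes 8 and 18, so the named differences are not maxima over all autosomes. Of genes within 1 Mb only that with the largest difference was kept. Windows needed at least 5 CpGs and a MethylMiner relative depth within a set range in the higher line. Some of these windows and 1 gene of a list are not reported here. Members and gene lists were chosen with earlier results of these data known. Subtraction of the background of windows without a CpG and the check in windows with at most 2 CpGs were added after the data were seen. Alternatives covered the fold, the copy number control, the windows, depth, scaling and filters. Python 3.11.15, numpy 2.4.6, pandas 2.3.3, scipy 1.17.1, numba 0.67.0 and matplotlib 3.10.9 were used.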

Additional observations from a re-analysis of the deposited data

Results flagged for a closer look

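The highest blind window of MethylCollector Ultra stood far above the MethylMiner depth of the same line in all 3 lines. In HCT15 its mean depth was 203.288 against 6.123 in MethylMiner, with 899 fragments, and in PC3 88.817 against 0.177, with 454 fragments. It was chr19:8953001-8954000 in every line, which holds the last exon of MBD3L1 (8953269 to 8954016). In DU145 it was 4.067 against 0.105, with 25 fragments. MethylCap had a mean depth of 2.075, 0.0 and 0.854 there in HCT15, DU145 and PC3. By the methods of the study, the kit contains MBD3L1 protein beside MBD2b, and the part of that in the signal was not tested.

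Promoter over intergenic depth of MethylCollector in HCT15, at 2.42 on the log2 scale, stood apart from the other kits of that line, with a gap of 0.863 of the range of 4 kits, past the 95% critical value of Dixon. MethylCollector was the highest of the 4 kits in the other two lines as well, at 2.24 in DU145 and 2.07 in PC3. Chance flags about 1 in 20 such groups.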

How the results depend on the processing

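Each MethylCap call rests on 1 library per line, so no replicate could be left out. Of the 4 summaries, blind over covered depth had an unadjusted exact permutation p of 0.0185 (54.8% of the sum of squares) when divided by the MethylMiner value of the line, against 0.0509 unadjusted without it. It was not adjusted over the 4 values, and rests on a divisor that all kits of a line share. Without the kit as replicate block the shares were 13.7%, 1.42%, 13.8% and 3.00% for blind over covered, gene body, promoter and windows without a CpG (exact permutation p = 0.499, 0.951, 0.518 and 0.868), which changed no call. Leaving out each kit gave 45.6 to 77.2%, 4.76 to 58.0%, 39.5 to 67.5% and 4.56 to 64.7%, with exact permutation p-values from 0.0556 to 1.0 and no call; the gene body value of 58.0% was that without MethylMagnet.

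In the order HCT15 and DU145, HCT15 and PC3, DU145 and PC3, the called genes were 429, 650 and 626 and the called bins 237, 369 and 289. At a fold of 1.5 there were 784 and 1161 genes for the first 2 pairs, and 693, 769 and 602 bins, with DU145 over PC3 in 474 and PC3 over DU145 in 128. Without the copy number control there were 662, 999 and 1152 genes and 385, 601 and 530 bins. The splits then became 281 and 381, 440 and 559, and 574 and 578 genes for the first and second line of each pair, and 392 and 138 bins for DU145 and PC3. In windows with both neighbours blind, 402 genes differed between DU145 and PC3, of 3585 tested. Centring on the median left 89 bins between HCT15 and DU145, and gave 303 genes with HCT15 over PC3 against 238 the other way. Subtracting the background, chosen after the data were seen, gave 984 genes between DU145 and PC3, and splits of 212 and 366, 346 and 552, and 467 and 517 genes.

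Of the 30 named differences, 17 stayed past the threshold with both neighbours blind, 12 lost it and LRRC38 between HCT15 and DU145 turned to -0.047. On fragment starts 2 lost it (ZFAND6 and RNF121, HCT15 over DU145), and with MethylCap thinned to the shallowest line 4 did. The causes were not tested. Among the named genes, the lower line often held under 10 MethylCap fragments.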
